A study of Mus musculus with 12 samples.

Results

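Control mouse embryonic stem cells (mESC) were compared with themselves at a later harvest: the 3 libraries of Gl2-KD cells taken 72 h after seeding against the 3 libraries taken at 24 h, paired by experiment number. Gl2-KD stands for transfection with a short interfering RNA (siRNA) against firefly luciferase, a gene that mouse cells do not carry. These 6 libraries are every Gl2-KD sample in a series of 12 polyA RNA libraries, and the other 6 come from cells that received an siRNA against *Srrm2* (Srrm2-KD) at the same times. The comparison asks how the control cells changed between the harvests, without any knockdown of *Srrm2*.

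Both groups were wild-type cells of the male line E14tg2a.4, kept on gelatin with leukemia inhibitory factor (LIF), the cytokine that sustains mESC self-renewal, and moved to serum-free ESGRO medium with LIF for 24 h or 72 h. Cells of either group were transfected with 50 nM siRNA when they were seeded, and those harvested at 72 h had received the same siRNA and reagents a second time at 24 h. Time in culture, time in serum-free medium, time since the last transfection and the second transfection therefore changed together and cannot be told apart. No untransfected cells were analysed here. The study describes the experiments as independent biological replicates.

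Mouse embryonic stem cells stand in a balance between self-renewal and exit from pluripotency. Naive pluripotency resembles the inner cell mass of the blastocyst, and the formative state that follows it prepares the cells for lineage choice. LIF acts through STAT3, and bone morphogenetic proteins (BMPs) act through SMAD proteins to switch on *Id* genes, whose products block basic helix-loop-helix factors. FGF signalling through ERK pushes the cells towards exit. A small, changing share of cells in such cultures switches on genes of the 2-cell embryo, among them the *Zscan4* cluster. In bulk RNA, fewer cells that express a gene and less RNA per cell cannot be told apart.

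The 6 Gl2-KD libraries held between 80944236 and 141143907 estimated counts. *Srrm2*, which the control siRNA does not target, was at 911, 496 and 449 CPM (counts scaled to library size with TMM factors) at 24 h in experiments 1, 2 and 3 and at 962, 479 and 442 CPM at 72 h. Its log2 fold change was −0.00 ± 0.14 (SE), and the level in the Srrm2-KD libraries lay between 154 and 517 CPM. Summed over 10 stem cell markers, the level was 6059 to 7051 CPM at 24 h and 5786 to 7419 CPM at 72 h. Fibroblast markers summed to 26.6 CPM at most, most of it *Thy1*, while *Dcn*, *Lum* and *Postn* were at 0 in 2 or 3 of the 6 libraries. Primitive endoderm markers summed to 3.12 to 5.78 CPM, mesendoderm markers to 5.30 to 8.65 CPM and neuroectoderm markers to 9.0 to 37.3 CPM, the last mostly *Pax6*. Across the 6 libraries 65.6% of the variance in log2 CPM lay between experiments and 16.4% between the times.

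Of 19410 genes tested, 282 (1.45%) had an adjusted p below 0.05 (quasi-likelihood test of edgeR, Benjamini-Hochberg) and are referred to as called. At 72 h 145 of them were higher (0.747% of genes tested) and 137 lower (0.706%). An unadjusted p under 0.05 was found for 3260 of the 19410. Scaling by library totals only, without TMM factors, gave 111 higher and 158 lower. In 280 of the 282 the change had the called direction in all 3 experiments. The genes were called on these same experiments, so this agreement largely follows from the calling. Among all genes tested, 20.2% were higher in 3 of 3 experiments and 16.4% lower. The changes were moderate, since 59 genes rose and 83 fell by 1 or more on the log2 scale. The median called change was 0.88 among the higher and −1.16 among the lower genes, against a median of 0.02 over all genes. Called genes were chosen for their change, so these medians are no separate result.

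Experiments started from different levels, so a called change did not always separate the times. Every 72 h library lay above every 24 h library for 62 of the 145 higher genes, and every 72 h library lay below for 66 of the 137 lower genes. The same held for 3.91% and 3.36% of all genes tested. The called genes were chosen on these libraries, so a higher share among them follows in part from the calling. The 137 lower genes include groups of near-identical copies with the same estimated counts, and held 130 distinct sets of values. In 3 called genes, *Bicra*, *Gm2541* and ENSMUSG00000103235, at least 1 library was listed at 0 and the fitted change is no measure of size; they were singled out after their values were seen.

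The number of calls depended on the fit. A fit of the 6 Gl2-KD libraries alone, with the replicate block, called 84 genes higher (0.464%) and 74 lower (0.409%), of which 62 and 64 were among the genes above. Without the block for experiment no gene was called by edgeR, at 744 genes with an unadjusted p under 0.05, while DESeq2 with the block called 723 higher (4.41% of those it gave an adjusted p) and 615 lower (3.75%). Leaving out experiment 2 also left 0 calls by edgeR, at 1383 genes with an unadjusted p under 0.05. Without experiment 3 there were 87 calls and without experiment 1 there were 375. Of fits without a single library, there were 2 calls without the 24 h library of experiment 1, 3 without that of experiment 2, 81 without that of experiment 3 and 60 without the 72 h library of experiment 3. Dropping the 72 h library of experiment 2 left 0 calls by edgeR, at 2073 genes with an unadjusted p under 0.05.

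**Figure D1:**
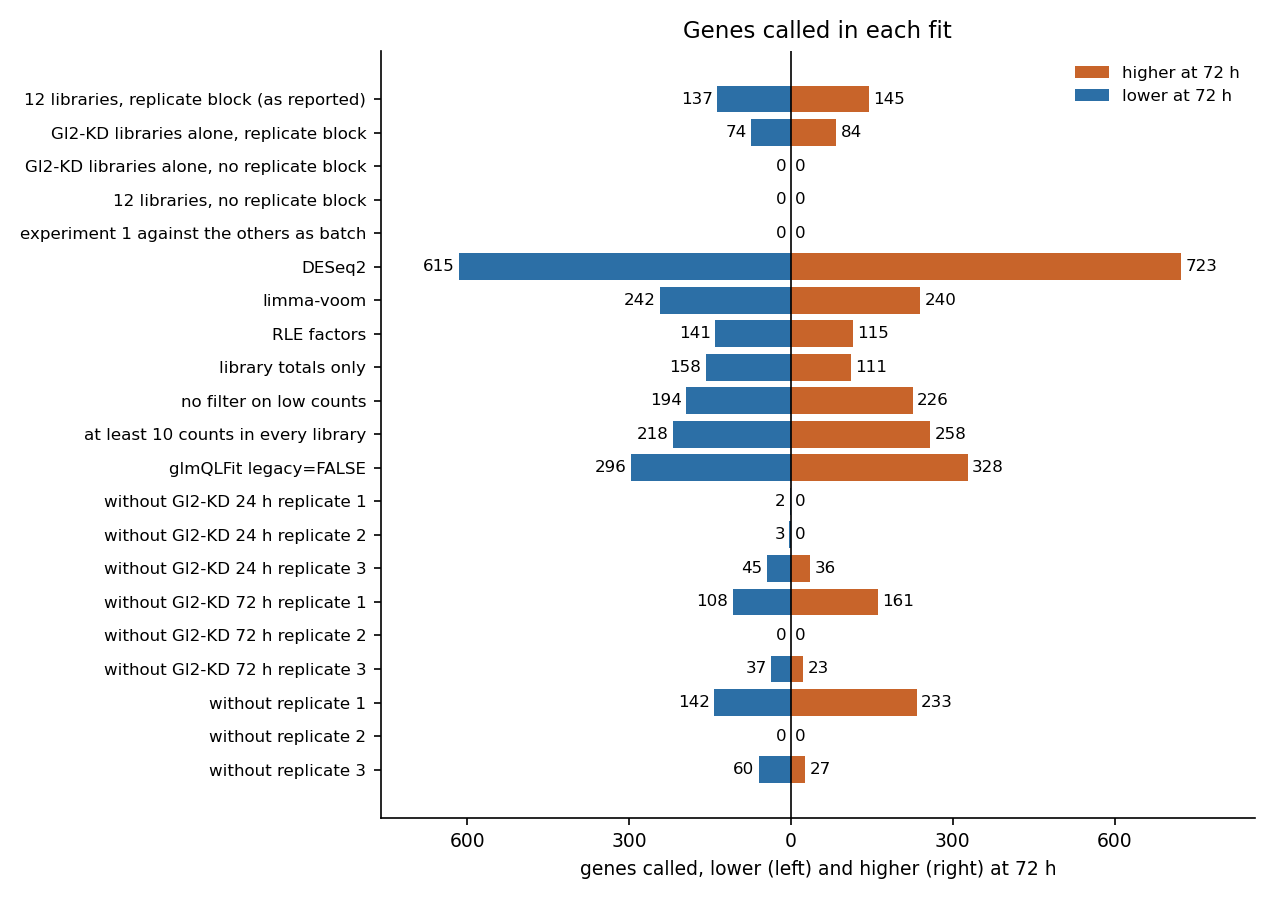
Genes called lower (left, blue) and higher (right, orange) at 72 h in Gl2-KD cells, by fit; the horizontal axis is a number of genes and each bar is 1 fit. The reported fit gives 137 and 145 genes, the fits with no replicate block give 0 and 0, and DESeq2 gives 615 and 723.

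*Id3*, a BMP target that blocks basic helix-loop-helix factors, showed the smallest p of all genes tested. Its level was 31.8, 37.7 and 15.7 CPM at 24 h in experiments 1, 2 and 3, and 8.32, 5.69 and 2.50 CPM at 72 h. Each 72 h library was below each 24 h library. The mean fell from 28.4 ± 11.4 to 5.50 ± 2.91 CPM (SD, n = 3 each), a 5.30-fold decrease with a log2 fold change of −2.40 ± 0.23 (SE) and an adjusted p of 0.00407 in edgeR's test. *Id3* lies at chr4:136143497-136145755 on the plus strand (GRCm38). *Id3* and *Foxd3* were also the 2 genes called both without the 24 h library of experiment 1 and without that of experiment 2.

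The other genes of the BMP pathway divided between falls, a rise and no call. *Bmp4*, a ligand, was at 78.3, 64.4 and 42.3 CPM at 24 h and at 41.2, 25.4 and 20.7 CPM at 72 h, and fell by 1.10 ± 0.16 (SE) on the log2 scale with no overlap between the times (adjusted p = 0.0144, edgeR). *Bmp7*, a second ligand at a far lower level, rose from 1.83, 1.79 and 4.78 CPM to 3.76, 5.67 and 13.5 CPM, by 1.42 ± 0.27 (adjusted p = 0.0321, edgeR). The 24 h library of experiment 3 was above the 72 h library of experiment 1, so the groups overlapped for *Bmp7*, although every experiment showed the rise.

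*Id1* and *Id2* were not called. *Id1* was at 6.58, 56.7 and 11.9 CPM at 24 h and at 8.23, 11 and 3.84 CPM at 72 h, and *Id2* at 5.04, 29.3 and 10.2 CPM and then 3.91, 5.37 and 5.50 CPM. The high value of both at 24 h in experiment 2 stands apart, and *Id1* was slightly higher at 72 h in experiment 1. Their log2 fold changes were −1.25 ± 0.45 and −1.17 ± 0.40 (adjusted p = 0.187 and 0.167, edgeR). *Bambi*, which encodes a decoy receptor, was at 11 to 11.8 CPM at 24 h and at 8.71 to 9.28 CPM at 72 h, with separate groups but a log2 fold change of −0.33 ± 0.14 (adjusted p = 0.269, edgeR). Over all genes 0.747% were called higher and 0.706% lower, and by DESeq2 4.41% and 3.75%. Of the 20 BMP pathway and *Id* genes tested, 1 rose, 2 fell and 17 were not called (DESeq2 called 1 and 2), with a median of −0.09. That median was −0.05 without the 24 h library of experiment 1, −0.15 without that of experiment 2, −0.19 without that of experiment 3 and −0.22 without the 72 h library of experiment 3, and −0.05, −0.19 and −0.27 without experiments 1, 2 and 3. Receptors, SMADs and the antagonists *Chrd*, *Nog* and *Grem1* were among those not called.

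**Figure D2:**
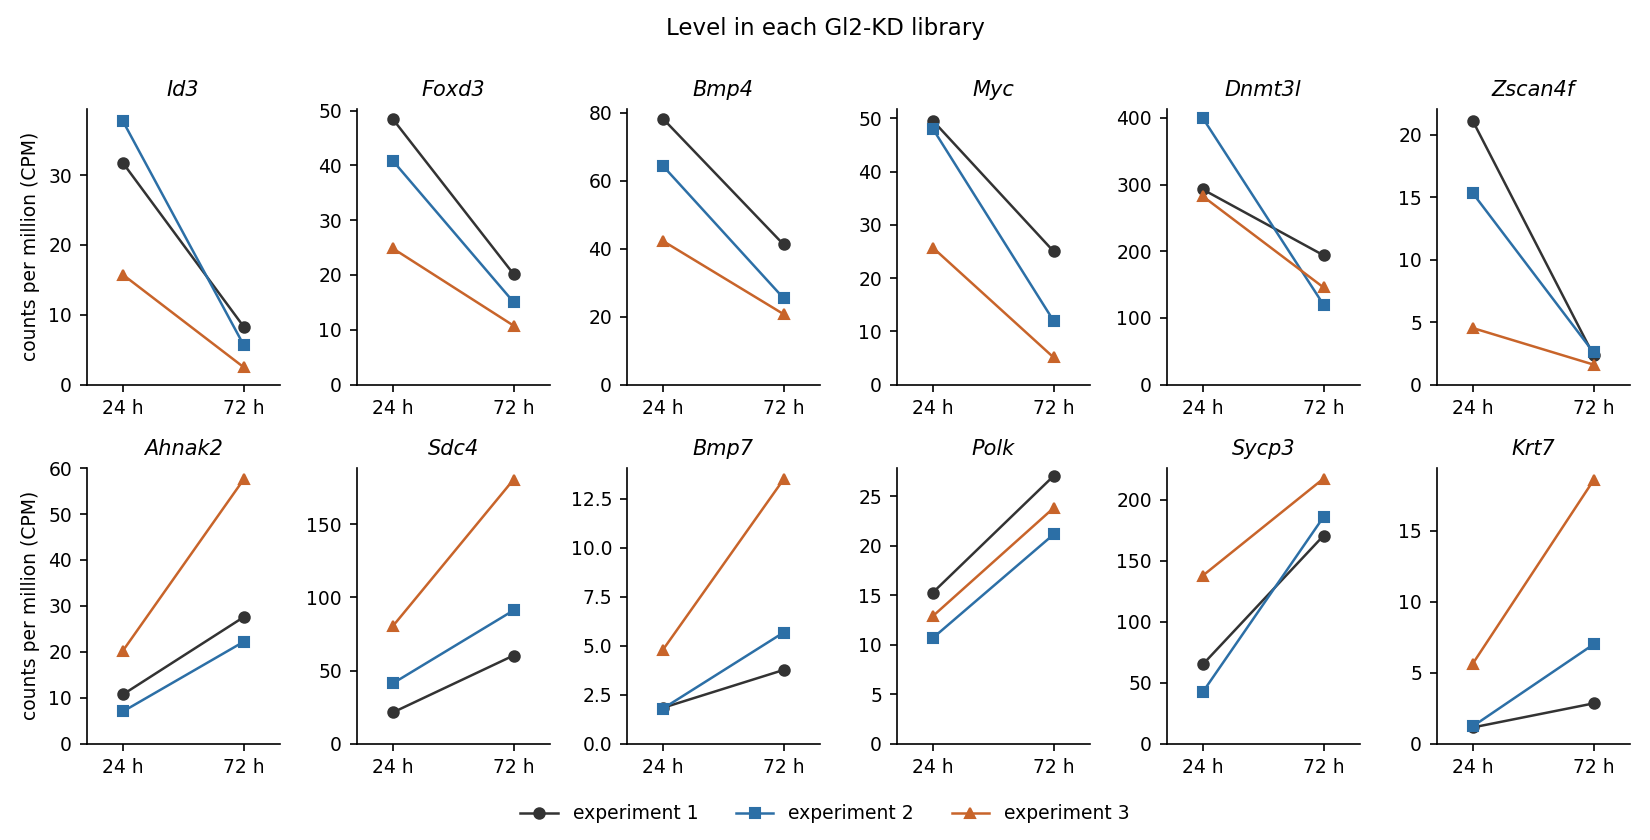
Level of 12 genes in each Gl2-KD library, in CPM on a linear axis from 0; each line joins the 24 h and 72 h libraries of 1 experiment. The upper row shows genes called lower and the lower row genes called higher; *Id3* falls from 15.7 to 37.7 CPM at 24 h to 2.50 to 8.32 CPM at 72 h, and experiment 3 starts lowest for *Id3* and highest for *Krt7*.

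Formative pluripotency genes gave calls in 1 direction. Of 13 tested, 4 fell, 0 rose and 9 were not called, and 7 were lower in 3 of 3 experiments, against 0.706% of all genes called lower and 16.4% lower in 3 of 3. DESeq2 called 4 lower and 0 higher, against 3.75% lower and 4.41% higher over all genes. The list median was −0.44, and −0.29 without experiment 3. *Foxd3*, a forkhead factor needed for the pluripotent epiblast, was at 48.4, 40.8 and 24.8 CPM at 24 h and at 20.2, 15 and 10.7 CPM at 72 h. Its fall of 1.31 ± 0.12 (SE) on the log2 scale, 2.48-fold, had an adjusted p of 0.00407 in edgeR's test, and the times did not overlap. *Tcf15*, a basic helix-loop-helix factor that primes cells for differentiation, fell from 20.1, 29.3 and 18.7 CPM to 13.5, 17.6 and 11.4 CPM, by 0.68 ± 0.11. *Etv1*, an ETS factor, fell by 0.98 ± 0.20, from 55.8, 24.0 and 15 CPM to 34.8, 12.3 and 5.83 CPM, and here the spread between experiments exceeded the change. *Cdh2*, N-cadherin, went from 18.4, 19.7 and 6.30 CPM to 13.2, 5.63 and 2.44 CPM and was just past the threshold (adjusted p = 0.0498, edgeR).

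The best-known markers of formative cells were not among these calls. *Otx2* was at 50.6, 51.2 and 124 CPM at 24 h and at 85.6, 113 and 76.0 CPM at 72 h, higher in 2 experiments and lower in experiment 3. *Fgf5* showed the same division, at 1.76, 2.52 and 5.61 CPM and then 4.21, 8.45 and 3.42 CPM. *Pou3f1* was at 8.17, 13.3 and 15.9 CPM and then at 8.25, 8.63 and 8.62 CPM. The log2 fold changes of *Otx2*, *Fgf5* and *Pou3f1* were 0.47 ± 0.36, 0.85 ± 0.56 and −0.49 ± 0.25.

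Naive pluripotency genes gave calls in 1 direction, and core genes gave 0 calls by edgeR. Of 16 naive genes tested 2 fell, with a median of −0.12, and of 12 core genes 0 were called, with a median of −0.18 and 6 at an unadjusted p under 0.05. Over all genes 0.706% were called lower, and 3260 of 19410 had an unadjusted p under 0.05. DESeq2 called 4 of the naive and 3 of the core genes lower and 0 higher, against 3.75% lower and 4.41% higher over all genes. The naive median was −0.18 without the 24 h library of experiment 3, −0.19 without experiment 2 and −0.22 without experiment 3. The core median was −0.09 without the 72 h library of experiment 3, −0.28 without experiment 1 and −0.12 without experiment 3. *Nr0b1*, a nuclear receptor of the naive network, fell from 188, 147 and 120 CPM to 138, 91.0 and 72.6 CPM, by 0.62 ± 0.10 (SE) on the log2 scale (adjusted p = 0.0214, edgeR). *Gbx2*, a homeobox gene induced by LIF, fell by 1.01 ± 0.19, from 38.1, 41.0 and 11.4 CPM to 24.1, 14.8 and 6.15 CPM (adjusted p = 0.0321, edgeR).

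*Pou5f1*, which encodes OCT4, was at 1316, 1956 and 1765 CPM at 24 h and at 1224, 1645 and 1538 CPM at 72 h, lower in each experiment, with a log2 fold change of −0.19 ± 0.08 (adjusted p = 0.249, edgeR). *Nanog* was at 493, 376 and 369 CPM and then at 451, 383 and 306 CPM, a log2 fold change of −0.12 ± 0.10. *Zfp42*, also known as Rex1, had separate groups, at 548 to 585 CPM and then 373 to 489 CPM, and missed the threshold (−0.35 ± 0.10, adjusted p = 0.0926, edgeR). *Sox2*, *Esrrb* and *Klf2* had log2 fold changes of −0.08 ± 0.13, 0.06 ± 0.11 and −0.07 ± 0.12, and *Klf4* of −0.20 ± 0.15.

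Genes of DNA methylation gave 1 call among 9 tested (DESeq2 called 2 lower). Of the 9, 6 had a negative and 3 a positive log2 fold change, and only members that fell are given with values here. Over all genes 0.706% were called lower, and 3.75% by DESeq2. *Dnmt3l*, the cofactor of the de novo methyltransferases, was at 293, 400 and 282 CPM at 24 h and at 194, 120 and 146 CPM at 72 h, a fall of 1.09 ± 0.18 (SE) on the log2 scale with separate groups (adjusted p = 0.0245, edgeR). *Dnmt3b* also separated the times, at 395 to 522 CPM and then 274 to 362 CPM, but was not called (−0.47 ± 0.15, adjusted p = 0.153, edgeR). *Dnmt3a* had a log2 fold change of −0.20 ± 0.19.

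Among ERK targets and genes of the Wnt pathway, each gene called by edgeR fell, while DESeq2 called 1 ERK target higher and 4 lower, and 2 Wnt genes higher and 3 lower. *Myc*, a transcription factor that drives growth and is listed here with ERK targets, was at 49.6, 48.0 and 25.7 CPM at 24 h and at 25, 12 and 5.10 CPM at 72 h, and fell by 1.73 ± 0.25 (SE) on the log2 scale, 3.32-fold (adjusted p = 0.0144, edgeR). *Spred1*, a feedback inhibitor of ERK signalling, fell by 0.67 ± 0.11, from 156, 74.0 and 49.5 CPM to 99.6, 48.9 and 28.9 CPM. In all 2 of 17 ERK targets fell and 0 rose, with a median of −0.24 (−0.11 without experiment 3), and 9 were lower in 3 of 3 experiments. The shares over all genes were 0.706% called lower and 16.4% lower in 3 of 3, and DESeq2 called 3.75% lower and 4.41% higher.

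Over all genes 0.706% were called lower and 0.747% higher, and by DESeq2 3.75% and 4.41%. Of 21 Wnt pathway genes 2 fell and 0 rose, with a median of −0.19. It was −0.04 without the 24 h library of experiment 2, −0.12 without that of experiment 3 and −0.11 without experiment 2. *Notum*, a secreted Wnt inhibitor that is itself a Wnt target, fell from 56.3, 55.5 and 32.4 CPM to 36.5, 21.4 and 9.10 CPM, by 1.24 ± 0.21. *Sp5*, a transcription factor that responds to Wnt, fell by 0.97 ± 0.21 from 4.08, 6.53 and 2.52 CPM to 2.67, 2.86 and 1.17 CPM. Of 12 FGF pathway genes 1 was called (DESeq2 called 2 higher and 2 lower), *Fgfr4*, an FGF receptor, which went from 1.23, 0.912 and 1.84 CPM to 2.96, 3.22 and 7.64 CPM (1.75 ± 0.27, adjusted p = 0.0179, edgeR). None of the 14 Nodal pathway genes was called, at 1 with an unadjusted p under 0.05 and 1 called by DESeq2, and *Lefty1* and *Lefty2*, feedback inhibitors of Nodal, were higher at 72 h in experiments 1 and 2 and lower in experiment 3. For the 13 genes listed with LIF and STAT3 the count was also 0. Of these, 3 had an unadjusted p under 0.05 and 1 was called by DESeq2. *Gbx2*, described above as induced by LIF and called lower, was counted with the naive genes and not in this list. Of all 19410 genes tested, 3260 had an unadjusted p under 0.05.

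Genes of the 2-cell embryo had the lowest median of the lists, at −2.23. Of 10 tested, 4 fell, 0 rose, 9 were lower in 3 of 3 experiments and 6 had every 72 h library below every 24 h library. Over all genes the shares were 0.706% called lower, 16.4% lower in 3 of 3 and 3.36% with every 72 h library below. DESeq2 called 5 of the 10 lower, against 3.75% over all genes. *Zscan4f* was at 21.1, 15.3 and 4.53 CPM at 24 h and at 2.35, 2.57 and 1.60 CPM at 72 h. *Zscan4c* went from 8.49, 8.30 and 1.63 CPM to 1.17, 1.01 and 1.02 CPM, and *Zscan4d* from 5.05, 4.97 and 1.26 CPM to 0.709, 0.690 and 0.548 CPM. The 72 h levels were close together, while the 24 h level of experiment 3 was far below those of experiments 1 and 2. On the log2 scale *Zscan4f* fell by 2.47 ± 0.41, *Zscan4d* by 2.27 ± 0.34 and *Zscan4c* by 2.20 ± 0.46 (SE), with adjusted p of 0.0245, 0.0159 and 0.0469 in edgeR's test. *Usp17lc*, a deubiquitinase gene, fell by 2.57 ± 0.49, from 2.45, 2.00 and 0.685 CPM to 0.326, 0.169 and 0.304 CPM.

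The *Zscan4* genes are close copies on chromosome 7, so estimated counts may be divided between them, and the 3 values are not independent. Their start regions show how alike they are. The stretches printed here are from RefSeq (GRCm38.p6), each running along the gene's own strand, with capitals marking TATAAAA, and lie at chr7:11005601-11005727 (plus), chr7:11166177-11166303 (minus) and chr7:11397794-11397920 (plus).
Zscan4c: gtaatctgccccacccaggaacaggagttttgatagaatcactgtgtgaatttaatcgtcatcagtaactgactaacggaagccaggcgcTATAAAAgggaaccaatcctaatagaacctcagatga
Zscan4d: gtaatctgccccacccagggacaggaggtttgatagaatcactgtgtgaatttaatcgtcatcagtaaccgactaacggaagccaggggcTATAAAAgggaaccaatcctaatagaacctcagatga
Zscan4f: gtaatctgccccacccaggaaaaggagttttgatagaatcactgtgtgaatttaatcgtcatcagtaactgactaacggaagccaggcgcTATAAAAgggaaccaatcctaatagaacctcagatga
Over these 127 bases *Zscan4c* and *Zscan4f* differed at 1 position, *Zscan4c* and *Zscan4d* at 4, and *Zscan4d* and *Zscan4f* at 5. TATAAAA, searched on both strands with no other motif, was in 6.39% of the 27025 genes' windows from 250 bases before to 50 after the start.

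The largest falls were ranked among calls that moved alike in 3 experiments and averaged 5 CPM or more at 1 time. The first 6 were also copies of each other. *Gm21293*, *Gm6763*, *Gm8764*, *Gm21304*, *Gm21312* and *Gm20765* lie in a row on chromosome 10, from chr10:104142987 to chr10:104188000 on the plus strand. *Gm6763* and *Gm8764* had the same estimated counts, at 9.43, 11.9 and 2.78 CPM at 24 h and at 1.02, 1.2 and 0.921 CPM at 72 h, and the 6 log2 fold changes ran from −2.73 to −2.48. Among the 5 with a RefSeq start region, the 300 bases were the same or differed at 1 position. Another 6 copies, *Gm13691*, *Gm13693*, *Gm13694*, *Gm13696*, *Gm13697* and *Gm13698* on chromosome 2, shared values of 1.37, 0.777 and 0.283 CPM and then 0.13, 0.0613 and 0.0609 CPM. Neither family counts as 6 separate observations.

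Targets of p53 rose where they were called. Of 23 tested, 5 rose and 0 fell, with a median of 0.53. In 3 of 3 experiments 17 were higher and 1 lower, and 9 had every 72 h library above every 24 h library. Over all genes 0.747% were called higher, and 4.41% by DESeq2. Shares of 20.2% were higher and 16.4% lower in 3 of 3, and 3.91% had every 72 h library above. DESeq2 called 11 of the list higher, limma-voom 7 and the fit of the 6 Gl2-KD libraries alone 6, and none of these fits called 1 lower. *Polk*, a DNA polymerase that copies past damaged bases, was at 15.3, 10.7 and 12.9 CPM at 24 h and at 27.0, 21.1 and 23.8 CPM at 72 h, a rise of 0.90 ± 0.12 (SE) on the log2 scale (adjusted p = 0.0112, edgeR). *Bbc3*, which encodes the cell death factor PUMA, rose by 0.71 ± 0.11, from 22.1, 36.5 and 47.6 CPM to 37.4, 58.0 and 77.8 CPM. *Ercc5*, a nuclease of excision repair, rose by 0.66 ± 0.10, from 32.6, 38.1 and 44.3 CPM to 52.2, 60.2 and 69.3 CPM. *Trp53inp1* rose by 0.81 ± 0.17, from 158, 99.9 and 148 CPM to 310, 206 and 197 CPM. *Mdm2*, the ubiquitin ligase that limits p53, rose by 0.60 ± 0.13, from 85.7, 93.7 and 82.9 CPM to 137, 140 and 120 CPM, with an adjusted p of 0.0488 in edgeR's test.

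Other p53 targets were not called by edgeR over the 12 libraries. In the list of 23, 2 had a negative log2 fold change, the lowest at −0.34, and neither is among those given with values. *Phlda3*, *Ccng1* and *Btg2* had log2 fold changes of 0.64 ± 0.14, 0.64 ± 0.15 and 0.85 ± 0.21 (adjusted p = 0.0552, 0.0642 and 0.0732, edgeR). *Cdkn1a*, the cell cycle inhibitor p21, was at 21, 26.5 and 36.2 CPM and then at 27.4, 35.0 and 58.5 CPM (0.50 ± 0.15, adjusted p = 0.127, edgeR). *Trp53* itself was at 374, 469 and 316 CPM at 24 h and at 405, 375 and 255 CPM at 72 h. *Fgfr4*, *Wdr7*, *Gbp4*, *Mdm2*, *Phlda3*, *Ccng1*, *Btg2*, *Cdkn1a* and *Trp53* were picked for mention after their values were seen.

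The p53 consensus decamer, searched on both strands, was in the start region of 10 of the 17 listed targets that have one in RefSeq and in 9.55% of all 27025 genes. Matches in *Mdm2* and *Polk*, which were among the 5 that rose, are shown here with the decamer in capitals. They lie at chr10:117710910-117710969 and chr13:96519384-96519437 (GRCm38.p6, both minus strand). Whether the start regions of *Bbc3*, *Ercc5* and *Trp53inp1* hold the decamer is not given here.
Mdm2: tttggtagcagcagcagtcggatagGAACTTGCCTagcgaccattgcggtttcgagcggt
Polk: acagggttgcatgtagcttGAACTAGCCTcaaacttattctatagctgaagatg
The decamer starts 186 bases before the annotated start of *Mdm2* and 231 bases before that of *Polk*. These matches describe the letters only.

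**Figure D3:**
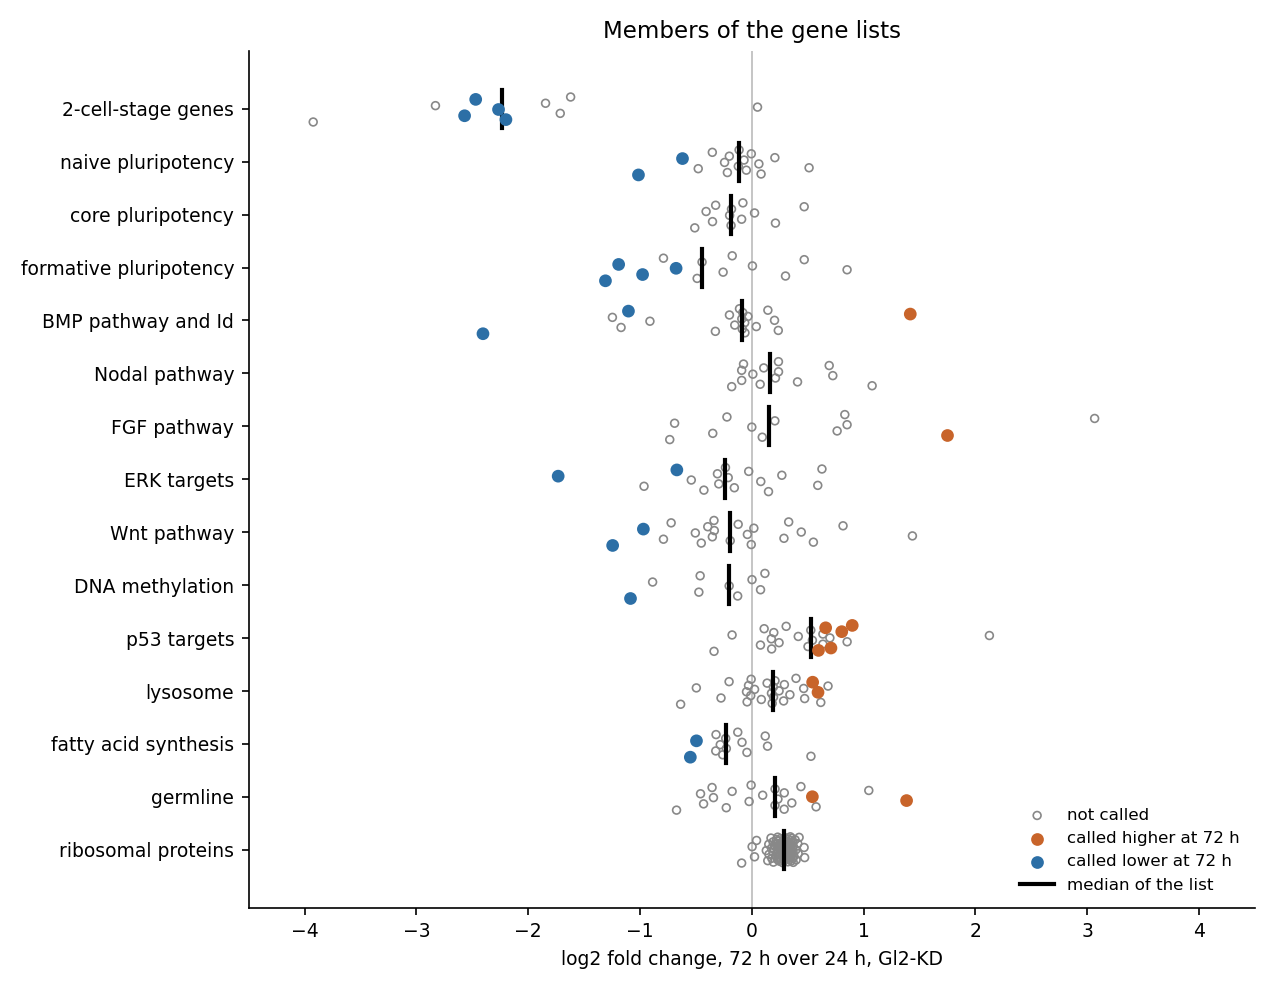
Log2 fold change at 72 h over 24 h in Gl2-KD cells for the tested members of 15 gene lists; each point is a gene, filled where called (orange higher, blue lower), and the black bar is the list median. The 2-cell-stage genes lie lowest, with a median of −2.23, the p53 targets have a median of 0.53, and ribosomal protein genes lie tightly around 0.29; 1 member lies beyond the axis.

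Ribosomal protein genes lay slightly above their 24 h levels without a call. Of 79 tested, 71 were higher at 72 h in 3 of 3 experiments and 0 lower, where the share of all genes was 20.2%, and the median log2 fold change was 0.29. Of the 79, 0 were called by edgeR, 57 had an unadjusted p under 0.05, and DESeq2 called 15 higher. *Rpl4* was at 2676, 3642 and 4828 CPM at 24 h and at 3643, 5240 and 5989 CPM at 72 h, and *Rpl8* at 1661, 2785 and 3455 CPM and then 2025, 3370 and 4285 CPM. Their log2 fold changes were 0.42 ± 0.10 and 0.29 ± 0.09 (SE). The list median stayed at 0.27 with RLE factors and at 0.25 with library totals only. Nuclear genes of oxidative phosphorylation had a median of 0.11, 20 of 32 higher in 3 of 3 experiments and 0 called, at 8 with an unadjusted p under 0.05 and 1 called by DESeq2. Of all 19410 genes, 3260 had an unadjusted p under 0.05, and DESeq2 called 4.41% higher.

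Lysosomal genes included 2 that rose and 0 that fell among 28, and 11 were higher in 3 of 3 experiments, against 0.747% of all genes called higher and 20.2% higher in 3 of 3. DESeq2 called 5 higher and 0 lower, against 4.41% higher and 3.75% lower over all genes. *Lamp2*, a membrane protein of the lysosome, rose by 0.59 ± 0.10 (SE) on the log2 scale, from 78.2, 41.5 and 75.3 CPM to 118, 71.7 and 100 CPM, and *Fnip1*, a partner of folliculin in nutrient sensing, by 0.54 ± 0.10. Of 14 genes of fatty acid synthesis 2 fell and 0 rose, and DESeq2 called 4 lower and 0 higher. Over all genes 0.706% were called lower, and 3.75% by DESeq2. *Fasn*, fatty acid synthase, fell from 145, 209 and 103 CPM to 102, 119 and 83.3 CPM, by 0.55 ± 0.11, and *Acaca*, acetyl-CoA carboxylase, by 0.49 ± 0.10, each with an adjusted p of 0.0407 in edgeR's test.

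Of 21 germline genes 2 rose and 0 fell by edgeR, while DESeq2 called 4 higher and 2 lower. Over all genes 0.747% were called higher, and DESeq2 called 4.41% higher and 3.75% lower. *Sycp3*, a component of the axis of meiotic chromosomes, was at 65.0, 42.4 and 138 CPM at 24 h and at 171, 186 and 217 CPM at 72 h, a rise of 1.39 ± 0.30 (SE) on the log2 scale (adjusted p = 0.0488, edgeR). *Stag3*, a meiotic cohesin subunit, rose by 0.54 ± 0.12, from 87.3, 57.2 and 93.3 CPM to 118, 99.1 and 121 CPM (adjusted p = 0.0498, edgeR). *Ass1*, argininosuccinate synthase, was the 1 call among 27 genes of the ATF4 stress response, at 119, 135 and 138 CPM and then 194, 204 and 189 CPM, a rise of 0.58 ± 0.11 with separate groups.

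*Krt7*, a keratin of simple epithelia, was the 1 call among 7 trophoblast markers, against 0.747% of all genes called higher. It was at 1.14, 1.23 and 5.64 CPM at 24 h and at 2.84, 7.0 and 18.6 CPM at 72 h, a rise of 1.83 ± 0.27 (SE) on the log2 scale (adjusted p = 0.0144, edgeR). The summed level of the list was 63.9 to 83.9 CPM at 24 h and 94.8 to 111 CPM at 72 h, most of it *Tfap2c*, which stem cells also express and which was not called (0.39 ± 0.12, adjusted p = 0.125, edgeR). The defining markers *Cdx2*, *Elf5*, *Gata3* and *Hand1* stayed below 1 CPM in every library, and *Cdx2* was at 0 in 1. The part of trophoblast cells in the *Krt7* result was not tested.

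No member was called in the lists for mitosis, interferon response, cholesterol synthesis, glycolysis, hypoxia, actin and SRF targets, extracellular matrix, the NRF2 response, RNA interference, nuclear speckles or the mitochondrial genome. In the same order 0, 4, 3, 5, 5, 8, 4, 4, 1, 3 and 2 members had an unadjusted p under 0.05, and DESeq2 called 0, 2, 2, 3, 1, 3, 1, 2, 0, 0 and 0. Among all genes tested, 3260 of 19410 had an unadjusted p under 0.05. Of 25 DNA replication genes 0 were called, 11 were lower in 3 of 3 experiments and 4 were called lower by DESeq2. Over all genes 16.4% were lower in 3 of 3, and DESeq2 called 4.41% higher and 3.75% lower. The epithelial to mesenchymal list held 1 call, the *Cdh2* described above.

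Apart from *Polk*, described above with the p53 targets, the rises with the smallest p were in genes of no common list. *Ahnak2* was at 10.7, 7.01 and 20.2 CPM at 24 h and at 27.6, 22.2 and 57.5 CPM at 72 h, with separate groups, and *Sdc4*, which encodes the cell surface proteoglycan syndecan-4, at 21.4, 41.3 and 80.4 CPM and then 60.3, 91.2 and 181 CPM. They rose by 1.52 ± 0.17 and 1.27 ± 0.15 (SE) on the log2 scale, each with an adjusted p of 0.0112 in edgeR's test. *Ephx1*, an epoxide hydrolase, rose by 1.28 ± 0.16 and *Dcxr*, a sugar reductase, by 1.40 ± 0.17. *Abcg1*, a cholesterol exporter, rose by 0.76 ± 0.09, *Exoc4*, a subunit of the exocyst, by 0.61 ± 0.08 and *Hmcn2*, an extracellular matrix protein, by 1.72 ± 0.23.

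The other rises with the smallest p were *Fam198b* (1.25 ± 0.16), the arginine deiminase gene *Padi3* (1.28 ± 0.17), the protease gene *Prss42* (1.38 ± 0.19) and the sulfotransferase gene *Chst1* (1.36 ± 0.19). Among calls that moved alike in 3 experiments at 5 CPM or more at 1 time, the largest rises included *Krt7* and *Hmcn2*. The others were *Adssl1*, an enzyme of AMP synthesis, by 2.06 ± 0.43, and *Anxa8*, an annexin, by 2.01 ± 0.39. *Camk2n1*, an inhibitor of CaMKII, rose by 1.80 ± 0.39, and *Cntd1*, a cyclin-like factor of meiosis, by 1.78 ± 0.37. Large rises rested on uneven experiments: *Adssl1* was at 0.720, 0.784 and 3.26 CPM and then 1.26, 5.59 and 16.7 CPM, while *Anxa8* was at 1.33, 4.00 and 5.45 CPM and then 10.8, 15.3 and 12.1 CPM.

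Other falls with a small p were in genes of none of the lists. *Sned1*, an extracellular matrix gene, was at 32.8, 12 and 6.27 CPM and then at 14.3, 4.31 and 3.53 CPM, a fall of 1.17 ± 0.14 (SE) on the log2 scale. *Msc*, the basic helix-loop-helix factor musculin, fell by 1.31 ± 0.17, from 7.81, 7.78 and 5.12 CPM to 2.93, 3.88 and 1.80 CPM. *Smyd1*, a histone methyltransferase of muscle, fell by 1.89 ± 0.26 and *Accsl* by 1.06 ± 0.14. *Nrp2*, a semaphorin and VEGF co-receptor, fell from 92.6, 75.0 and 68.8 CPM to 58.2, 48.4 and 37.9 CPM, by 0.72 ± 0.11 (adjusted p = 0.0159, edgeR). Of other genes that the study singled out, *Mybl1*, *Fgf11* and *Cox6b2* were higher at 72 h in every experiment without a call, at 0.51 ± 0.11, 0.76 ± 0.20 and 0.82 ± 0.27 (adjusted p = 0.0524, 0.0836 and 0.155, edgeR). The study singled out these genes, *Nrp2*, *Id3*, *Foxd3* and *Ass1* for a difference at 72 h between Srrm2-KD cells and these same Gl2-KD libraries. Their change with time in Gl2-KD cells is therefore not independent of that choice.

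Srrm2-KD cells went through the same schedule, and the question was whether they changed otherwise. The test of the difference between the changes with time called 0 of 19410 genes (0%) by edgeR, with 319 at an unadjusted p under 0.05. DESeq2 called 2, *Wdr7* and *Gbp4*, and limma-voom 0. The 2 fitted differences were −11.6 ± 1.6 and −27.3 ± 5.9 (SE) on the log2 scale, and values this extreme are no measure of size. The genes called in Gl2-KD cells had the same sign in Srrm2-KD cells in 145 of 145 and 136 of 137 cases, and in 3 of 3 Srrm2-KD experiments in 138 and 126. These are other libraries, but from the same 3 experiments. Their spread also entered the fit that made the calls, so they are no independent check. Across all 19410 genes the changes in the 2 siRNAs correlated at r = 0.35, 0.40 and 0.30 in experiments 1, 2 and 3.

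Their median change in Srrm2-KD cells was 0.66 for the higher and −0.83 for the lower genes. The genes were chosen on their Gl2-KD values, so the smaller medians are no measure of a smaller change. *Id3* had a log2 fold change of −1.62 ± 0.22 (SE) in Srrm2-KD cells, *Foxd3* of −0.91 ± 0.12, *Bmp4* of −1.04 ± 0.16 and *Sycp3* of 1.58 ± 0.30. In Srrm2-KD cells 107 genes (0.551%) were called with time, of which 69 were called in Gl2-KD cells too, that is 69 of 107 and 69 of 282.

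**Figure D4:**
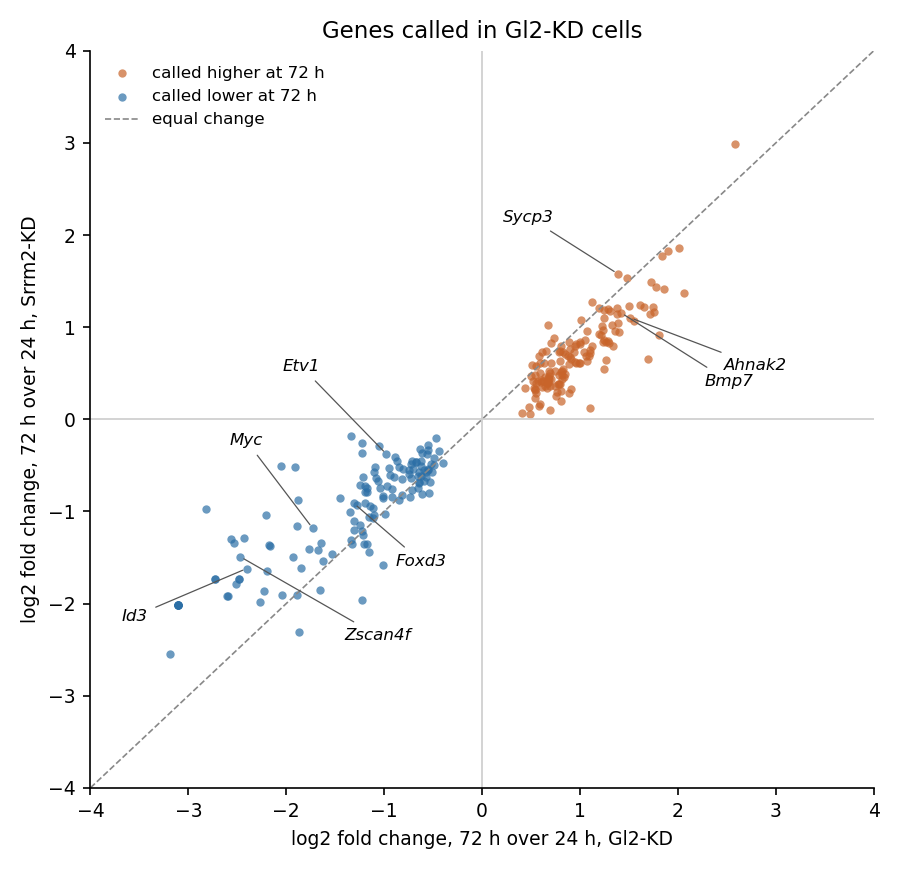
Log2 fold change at 72 h over 24 h in Gl2-KD cells (horizontal) against Srrm2-KD cells (vertical) for 279 of the 282 genes called in Gl2-KD cells, the other 3 lying beyond the axes; the dashed line marks equal change. All drawn genes called higher lie above 0 on both axes, and of the 137 called lower, 136 were below 0 in Srrm2-KD cells too.

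List medians in single experiments show where the groups moved together. For the 2-cell-stage genes the median change in log2 CPM was −2.15, −2.88 and −1.15 in experiments 1, 2 and 3, for p53 targets 0.68, 0.42 and 0.47, and for ribosomal protein genes 0.28, 0.32 and 0.26. Formative genes were at −0.16, −0.58 and −0.77, the smallest change being in experiment 1. In Srrm2-KD cells the formative medians were 0.02, 0.18 and −0.71, so that list fell only in experiment 3. There the p53 targets had medians of 0.49, 0.21 and 0.10. The 2-cell-stage genes had −2.29, −1.50 and −0.81, and ribosomal protein genes 0.14, 0.54 and 0.25. Across all 19410 genes the Gl2-KD change in experiment 1 correlated with that in experiment 2 at r = 0.24 and with that in experiment 3 at r = 0.11. The Gl2-KD changes in experiments 2 and 3 correlated at r = 0.30. These values describe genes, which are not replicates.

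**Figure D5:**
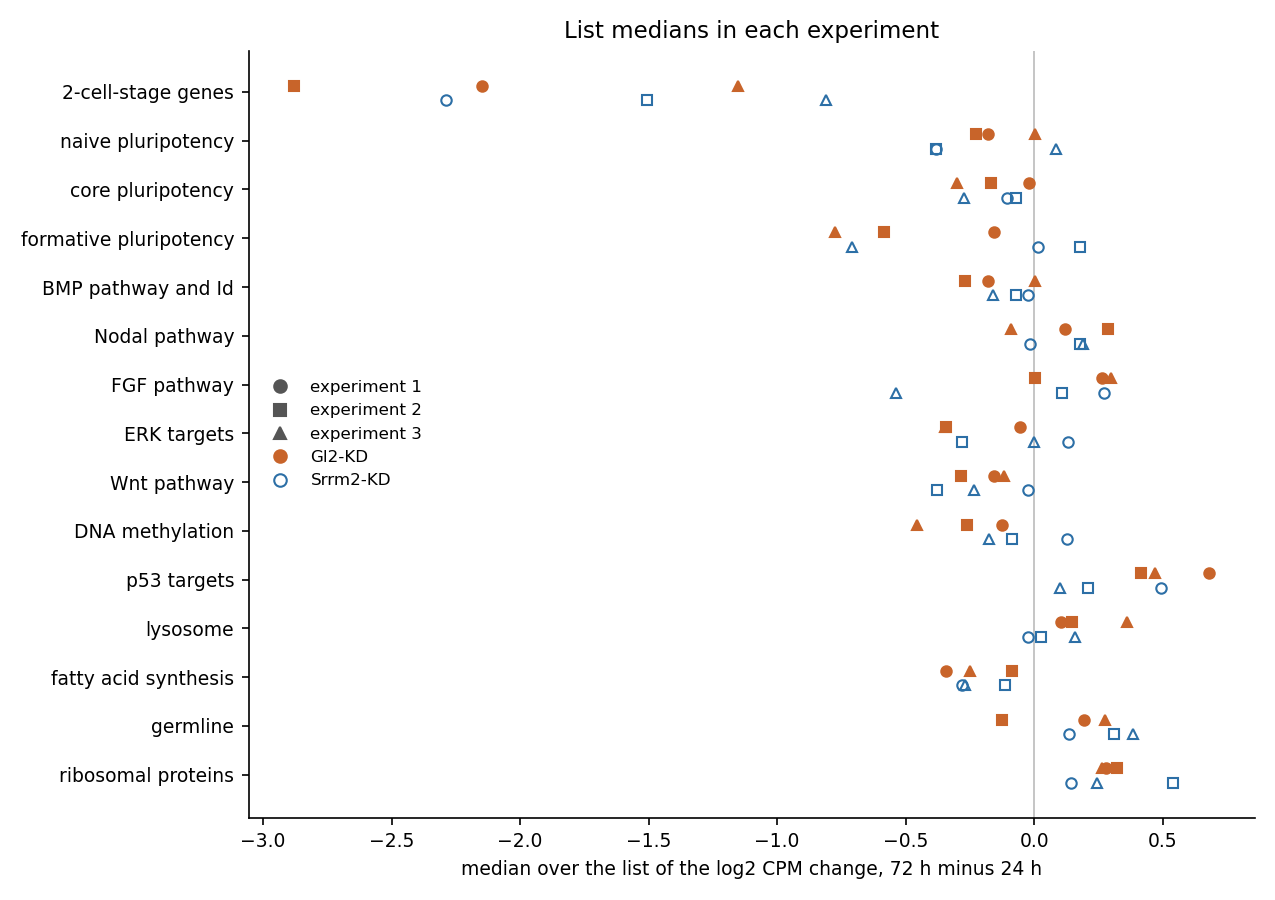
Median over each gene list of the change in log2 CPM from 24 h to 72 h, in each of 3 experiments (marker shape), for Gl2-KD (filled, orange) and Srrm2-KD (open, blue). The 2-cell-stage genes lie between −2.88 and −1.15 in Gl2-KD cells, and ribosomal protein genes between 0.26 and 0.32.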

How the data were processed

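PolyA RNA of 12 libraries was sequenced as 100-bp paired reads. The authors deposited estimated counts per gene, made with kallisto 0.46.1 on GENCODE M24 (mm10). Counts were rounded here, genes below filterByExpr (10 counts) were left out, TMM factors set, and edgeR 4.0.16 (R 4.3.3) fitted with siRNA and time as groups and experiment as a block, over all 12 libraries. The block rests on the labels' experiment numbers. Deviations of same-numbered Gl2-KD libraries correlated at 0.66, 0.35 and 0.58. The study's own batch term was the RNA processing day, which the labels do not give per library, so the block here may differ from it. CPM values use the TMM factors. Gene names came from GENCODE M21. DESeq2 1.42.0 and limma 3.58.1 were alternatives, as were other normalizations, filters and left-out libraries.

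The comparison, the gene lists and the rule for named genes were chosen with earlier results of these data known. Named were *Srrm2*, and per direction, among calls that moved alike in 3 experiments, the 12 with the smallest p and the 6 largest (at 5 CPM or more at 1 time); the 4 largest calls per list, or where fewer than 2 were called its 2 most abundant members; members of the pluripotency, BMP, Nodal and DNA methylation lists; and 7 genes the study singled out. Genes outside this rule are said in the text. Of the members of these lists, only some are given with values. With 3 libraries per group, precision was set by the spread left after the block for experiment (biological coefficient of variation 0.22).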

Additional observations from a re-analysis of the deposited data

How the results depend on the processing

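The limits are the 3 experiments and the choice of fit. For all calls and for higher and lower genes, the 6 Gl2-KD libraries alone with the replicate block gave 158, 84 and 74, and every fit without that block, or with experiment 1 against the others as batch, gave 0, 0 and 0 (531 to 1904 genes had an unadjusted p under 0.05). DESeq2 gave 1338, 723 and 615, limma-voom 482, 240 and 242, at least 10 counts in every library 476, 258 and 218, no filter 226 higher genes, and glmQLFit with legacy=FALSE 624, 328 and 296. Leaving out a library or an experiment gave 0 to 375 calls, 0 to 233 higher and 0 to 142 lower. Library totals only moved the split to 111 higher and 158 lower, and RLE factors to 115 and 141. List members called, 32 in all, were 0 without the block or with that batch, 102 by DESeq2, 55 with legacy=FALSE and 0 to 44 when 1 library or experiment was dropped. Of the list medians given in the text, those of the naive, core, formative, BMP, ERK and Wnt lists moved by over 1.5 times when a library or experiment was dropped, and those of the 2-cell, p53, ribosomal and oxidative phosphorylation lists did not. The difference between siRNAs had 2 calls by DESeq2, 1 with no filter and 0 to 1 with libraries left out.

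Of the 66 named genes that were called, none reversed under any alternative run. In fits without the block 66 of 66 lost the call, with the Gl2-KD libraries alone 10 of 66, and with DESeq2, limma-voom or legacy=FALSE 0 of 66. *Srrm2*, near 0, was 0.015 (6 libraries) and 0.020 (12 libraries) without the block and 0.00075 by limma-voom, and ranged from −0.11 to 0.14 with libraries left out. With libraries left out *Sox2* ranged from −0.240 to 0.0724 and *Esrrb* from −0.0156 to 0.144.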

Other observations

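Other called genes, picked after their values were seen, belonged to no list. *Glul*, glutamine synthetase, was at 613, 643 and 248 CPM at 24 h and at 341, 237 and 152 CPM at 72 h in experiments 1, 2 and 3, a fall of 1.01 ± 0.14 (SE) on the log2 scale with an adjusted p of 0.0119 in edgeR's test. The times overlapped, since the 24 h library of experiment 3 lay below the 72 h library of experiment 1. *Zp3*, which encodes a protein of the egg coat, was at 7.05, 16.6 and 6.73 CPM and then at 2.88, 2.90 and 2.30 CPM, a fall of 1.77 ± 0.24 (adjusted p = 0.0121, edgeR) with no overlap between the times.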
